A study of Mus musculus with 22 samples.

Results

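The insulin-like growth factor (IGF) genes described here are the ligands *Igf1* and *Igf2*, the receptors *Igf1r* and *Igf2r*, and the IGF-binding proteins *Igfbp2*, *Igfbp3*, *Igfbp4*, *Igfbp5*, *Igfbp6* and *Igfbp7*. These 10 genes were taken by symbol from the 17931 gene symbols of the count table, and all 10 had enough reads for testing. The question was how their transcript levels differ between testes with and without MLX, a bHLHLZ transcription factor that pairs with MondoA, ChREBP and members of the MXD family. RNA from whole testes was sequenced in 3 WT males and 3 MLX KO males, all 7 months old. The study describes them as age-matched littermates, and the sample titles pair the males by number. The MLX KO males carried a constitutive homozygous deletion of the *Mlx* exons that encode the dimerization and DNA-binding region, so every cell type of the testis, and every other tissue of the animal, lacked that region. The allele was made in 129S4 embryonic stem cells and recombined with the deleter Meox2-Cre, which was later bred out, and the WT males were proven breeders. Effects that start in the testis and effects that start elsewhere in the animal cannot be told apart with this model.

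IGF1 and IGF2 are secreted peptides that signal through IGF1R, a receptor tyrosine kinase, while IGF2R binds IGF2 and delivers it to lysosomes. IGFBPs hold IGFs outside the cell, lengthen their life and control their access to IGF1R, and several also act on cells without IGFs. In the testis, the axis is known for roles in Leydig cell maturation, in Sertoli cell number and in the support of germ cells.

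The upstream sequences of the genes are shown first, because MLX heterodimers bind E-boxes of the form CACGTG. This motif, which reads the same on both strands, was searched in 14 windows of the 10 genes (build GRCm38.p6). Each window held the 250 bases before a RefSeq start. No window lay before the outermost RefSeq start of *Igf1*, *Igfbp3* or *Igfbp4*, so those starts were not searched. CACGTG was present in windows of 2 of the 10 genes, *Igf2r* and *Igfbp2*, and of 6.86% of the 27025 genes with a RefSeq window. *Igf2r* held it at 48 and 7 bases before the start (chr17:12769707-12769956, minus strand), and *Igfbp2* at 142 bases before one of its starts (chr1:72824230-72824479, plus strand). The window of *Igf1r* (chr7:67952007-67952256, plus strand), a gene that rose in MLX KO testes, is printed beside them as one without the motif. Sequences are from RefSeq, 5′ to 3′ on the strand of the gene, with each CACGTG in capitals.
Igf2r: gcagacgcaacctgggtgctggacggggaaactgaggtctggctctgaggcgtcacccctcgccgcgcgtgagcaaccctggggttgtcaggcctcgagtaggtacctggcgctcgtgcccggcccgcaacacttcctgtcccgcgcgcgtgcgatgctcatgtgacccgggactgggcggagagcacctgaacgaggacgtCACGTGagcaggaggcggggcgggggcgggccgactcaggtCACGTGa
Igfbp2: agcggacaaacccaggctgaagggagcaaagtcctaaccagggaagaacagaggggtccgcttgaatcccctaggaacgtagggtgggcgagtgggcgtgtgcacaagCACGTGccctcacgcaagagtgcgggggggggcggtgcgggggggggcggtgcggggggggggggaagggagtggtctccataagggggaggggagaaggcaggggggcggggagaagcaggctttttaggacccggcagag
Igf1r: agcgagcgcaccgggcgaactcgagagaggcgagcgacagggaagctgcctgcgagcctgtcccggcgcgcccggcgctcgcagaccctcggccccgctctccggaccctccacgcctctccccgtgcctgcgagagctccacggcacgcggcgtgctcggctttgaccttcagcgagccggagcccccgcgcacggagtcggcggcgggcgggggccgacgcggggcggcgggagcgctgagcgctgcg
These windows also hold GGGCGG, the core of the GC box, on 1 strand or the other. It was found upstream of 5 of the 10 genes, namely *Igf2*, *Igf1r*, *Igf2r*, *Igfbp2* and *Igfbp7*, and of 35.4% of all genes with a window. TATAAA on the strand of the gene was found upstream of *Igfbp4* alone among the 10, against 8.94% of all genes, and on either strand upstream of 2 of the 10, *Igfbp4* and *Igfbp6*, against 14.3% of all genes. *Igf2r* and *Igfbp2* were also the genes of this group with log2 fold changes (LFC, MLX KO relative to WT) nearest to 0, as given below. A link between the motif and the LFC was not tested, and the starts not searched include those of *Igf1*, *Igfbp3* and *Igfbp4*, which rose. A match is a run of letters, and binding was not analysed here.

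The libraries held between 16674678 and 19742726 counts, and counts scaled to library size (CPM) were adjusted with TMM factors of 0.943 to 0.961 in WT and 1.02 to 1.07 in MLX KO libraries. Of 14640 genes tested with edgeR's quasi-likelihood test and Benjamini-Hochberg adjustment, 6649 (45.4%) had an adjusted p under 0.05, and the median LFC of all genes tested was 0.025. *Mlx* itself was counted 128, 96 and 98 times in the WT libraries against 94, 109 and 102 times in the MLX KO libraries (LFC -0.18, SE 0.14, adjusted p = 0.326, edgeR). This count did not separate the genotypes and can include reads from exons left in place, which were not counted apart, so the labels were taken as given. The library labelled KO1 stood apart from KO2 and KO3, with a chi-square per degree of freedom of 8.26 and 8.25 against 2.73 between KO2 and KO3. Values are therefore also given without it where that changes the call of an IGF gene, of *Insr* or of *Irs1*.

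Transcripts of the IGF genes were higher in MLX KO testes for 7 of the 10 genes, *Igf1*, *Igf2*, *Igf1r*, *Igfbp3*, *Igfbp4*, *Igfbp6* and *Igfbp7* (adjusted p under 0.05, edgeR). None of the 10 was lower past the threshold, a count of 0 that also held at an unadjusted p under 0.05 and with DESeq2, and *Igf2r*, *Igfbp2* and *Igfbp5* did not pass it. Over all genes tested, 24.8% were higher and 20.6% lower in MLX KO testes by the same rule. The median LFC of the 10 genes was 0.71, and 9 of the 10 LFCs were above 0. In 6 of the 10 genes, all among the 7 higher ones, every MLX KO library exceeded every WT library, against 30.3% of all genes tested. This separation and the calls rest on the same counts, so it adds no support to them. Without KO1, 8 of the 10 genes were past the threshold, *Igfbp5* being added, and so were 7395 of all 14787 genes then tested. Because RNA came from whole testes, more cells of a type and more RNA per cell cannot be told apart.

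**Figure D1:**
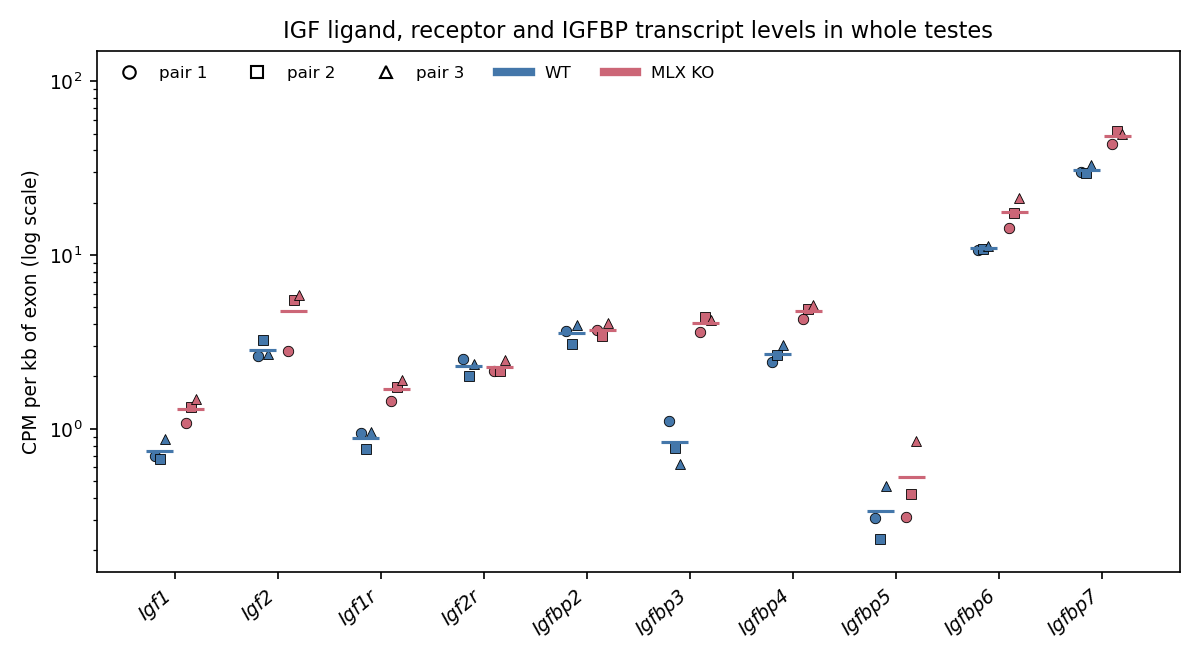
Transcript level of each IGF gene in each library, in CPM per kb of exon on a log scale. Circles, squares and triangles are pairs 1, 2 and 3, blue is WT, red is MLX KO and the lines are group means. *Igfbp3* shows the widest gap between the groups, *Igfbp7* is the highest of the genes in every library, and the groups lie on each other for *Igf2r* and *Igfbp2*.

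Both ligand transcripts were more abundant in MLX KO testes, *Igf1* in every library and *Igf2* in KO2 and KO3. *Igf1* (chr10:87858265-87937047) encodes the ligand that growth hormone induces in liver and that Leydig and other somatic cells of the testis also make. It had 131, 105 and 153 reads in the WT libraries 1, 2 and 3, against 207, 239 and 277 reads in the MLX KO libraries 1, 2 and 3. The lowest MLX KO library exceeded the highest WT library, at 10.7 against 8.63 CPM. Its level was 7.40 ± 1.07 CPM in WT and 12.9 ± 2.02 CPM in MLX KO testes (SD, n = 3 each). The LFC was 0.79 (adjusted p = 0.00118, edgeR, SE 0.14), or 1.73-fold (95% interval 1.39 to 2.16). Within the pairs the LFC was 0.63, 0.99 and 0.77.

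*Igf2* (chr7:142650768-142666816), the imprinted ligand best known from fetal growth, had 283, 293 and 272 reads in WT1 to WT3 and 310, 573 and 636 reads in KO1 to KO3. KO1 lay within the WT range, at 16.0 CPM against 14.9 to 18.6 CPM, while KO2 and KO3 reached 31.7 and 33.7 CPM. The mean rose from 16.3 ± 2.03 to 27.1 ± 9.69 CPM (SD, n = 3 each). The LFC was 0.74 (adjusted p = 0.0189, edgeR, SE 0.22), or 1.67-fold (95% interval 1.19 to 2.34). *Igf2* was the only 1 of the 7 higher genes whose groups overlapped and whose call depended on the test. DESeq2 gave an LFC of 0.70 with an adjusted p of 0.0904, and DESeq2 with the littermate pair as a block gave 0.64 and 0.0854. The edgeR call was also lost without WT1, WT3, KO2 or KO3, at LFCs of 0.67, 0.69, 0.62 and 0.55, whereas without KO1 the LFC was 1.01 (adjusted p = 9.20e-06, edgeR). Over all alternatives the adjusted p ran from 9.20e-06 to 0.0904. In the GENCODE annotation, 62.8% of the exon bases of *Igf2* are shared with *Gm49394* on the same strand, a gene that has no row in the count table, so the count of *Igf2* depends on how such reads were assigned.

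Of the receptors, *Igf1r* (chr7:67952257-68233668), which encodes the signaling receptor, rose in every pair, whereas *Igf2r*, which encodes the clearance receptor, did not pass the threshold. *Igf1r* had 301, 203 and 284 reads in WT against 470, 527 and 605 reads in MLX KO testes. No MLX KO library came near the WT range, which ended at 16.0 CPM, against 24.2 CPM in KO1. Its level was 14.9 ± 1.75 CPM in WT and 28.5 ± 3.94 CPM in MLX KO testes (SD, n = 3 each). The LFC was 0.93 (adjusted p = 1.28e-04, edgeR, SE 0.12), or 1.90-fold (95% interval 1.59 to 2.27). The LFC within pairs was 0.61, 1.18 and 1.00.

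*Igf2r* (chr17:12682406-12769706), imprinted in the mouse like its ligand, had 448, 295 and 391 reads in WT against 388, 362 and 435 reads in MLX KO testes. The libraries of both genotypes were interleaved, from 18.8 to 23.6 CPM in WT and from 20.0 to 23.0 CPM in MLX KO testes. The LFC of -0.03 had a 95% interval from -0.25 to 0.18 (adjusted p = 0.803, edgeR), which leaves out changes of the size seen for *Igf1r*. With library size alone as the scaling, the median LFC of all genes moved from 0.025 to 0.16, and that of *Igf2r* became 0.11.

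The insulin receptor gene *Insr*, whose product forms hybrids with IGF1R, gave a reference within the same libraries. On levels per kb of exon, the ratio of *Igf1r* to *Insr* was 0.509, 0.438 and 0.461 in WT against 0.756, 0.819 and 0.820 in MLX KO testes. The groups did not overlap, and the log2 ratio was higher by 0.77 in MLX KO testes (-1.09 ± 0.110 against -0.33 ± 0.0671, SD, n = 3 each, exact permutation test, two-sided p = 0.1, the smallest that 3 against 3 allow). *Insr* itself had an LFC of 0.16 (SE 0.09, adjusted p = 0.166, edgeR). Without KO1 it was 0.23 with an adjusted p of 0.0375, and over the alternatives the adjusted p of *Insr* ran from 0.0330 to 0.491.

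*Igfbp3* had the largest LFC of the 10 genes. It encodes the main carrier of IGFs in blood, which forms a ternary complex with the acid-labile subunit and also has proapoptotic actions. The gene (chr11:7206086-7215498) had 66, 38 and 35 reads in WT1 to WT3 and 219, 248 and 249 reads in KO1 to KO3. The MLX KO libraries lay between 11.3 and 13.7 CPM, all above the WT libraries at 1.97 to 3.48 CPM. Its level rose from 2.62 ± 0.774 to 12.7 ± 1.27 CPM (SD, n = 3 each). The LFC was 2.27 (adjusted p = 8.01e-06, edgeR, SE 0.18), or 4.81-fold (95% interval 3.66 to 6.31). By absolute LFC, *Igfbp3* ranked at 63 among the 14640 genes tested. The LFC was 1.70 in pair 1, where the WT male had the highest and the MLX KO male the lowest value of its group, and 2.51 and 2.74 in pairs 2 and 3. Over 13 alternatives it lay between 2.09 and 2.54 and stayed past the threshold.

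Among the other binding proteins, *Igfbp4*, *Igfbp6* and *Igfbp7* rose by smaller amounts. *Igfbp4* (chr11:99040005-99052655), whose product inhibits IGF action until it is cleaved by PAPPA, had 202, 184 and 238 reads in WT against 366, 393 and 432 reads in MLX KO testes. Its level was 11.9 ± 1.40 CPM in WT and 21.2 ± 2.06 CPM in MLX KO testes (SD, n = 3 each). The LFC was 0.83 (adjusted p = 1.70e-04, edgeR, SE 0.11). The pairs were nearly alike, at 0.83, 0.89 and 0.77. *Igfbp4* lies 2.03 Mb from *Mlx* on chromosome 11, and *Igfbp3*, on the same chromosome, lies 93.87 Mb away.

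*Igfbp6* (chr15:102144186-102149512), whose product prefers IGF2 over IGF1, had 225, 189 and 223 reads in WT against 308, 350 and 448 reads in MLX KO testes. The WT libraries were tight, from 11.9 to 12.6 CPM, and the MLX KO libraries spread from 15.9 to 23.7 CPM without reaching down to them. The LFC was 0.69 (12.2 ± 0.374 against 19.7 ± 3.92 CPM, SD, n = 3 each, SE 0.13, adjusted p = 0.00154, edgeR), and it was 0.42, 0.69 and 0.92 in the pairs. *Igfbp7* (chr5:77349240-77408045), a low-affinity IGF binder of vessel walls and matrix, had 688, 567 and 705 reads in WT against 1018, 1128 and 1140 reads in MLX KO testes. Its level rose from 37.4 ± 2.08 to 58.4 ± 5.22 CPM (SD, n = 3 each). The LFC was 0.64 (adjusted p = 7.62e-05, edgeR, SE 0.07). It shares 7.03% of its exon bases with *Polr2b* on the opposite strand, and whether counting used strand is not given in the sources used here.

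The neighbouring genes *Igfbp2* and *Igfbp5*, which lie 5.59 kb apart on chromosome 1, did not pass the threshold. *Igfbp2* (chr1:72824480-72852474) encodes the binding protein that is prominent in fetal tissues and in blood. It had 128, 89 and 130 reads in WT against 132, 114 and 142 reads in MLX KO testes, with the CPM values of the genotypes interleaved. Its LFC was 0.06 (6.58 ± 0.848 against 6.88 ± 0.608 CPM, SD, n = 3 each, adjusted p = 0.742, edgeR), with a 95% interval from -0.24 to 0.36.

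*Igfbp5* (chr1:72858065-72874865), the gene of the most conserved IGFBP, was thinly covered, with 35, 22 and 50 reads in WT against 36, 46 and 96 reads in MLX KO testes. KO1 lay beside WT1, at 1.86 and 1.85 CPM, and KO3 stood above all others at 5.08 CPM. The interval of its LFC, 0.63 (95% interval -0.17 to 1.44, adjusted p = 0.179, edgeR), contains both no change and the values of *Igfbp4* and *Igfbp7*. WT3 and KO3 were the highest of their groups, whereas WT2 and KO1 were the lowest, so the libraries were not ordered alike by pair. With the littermate pair as a block in edgeR, the LFC was 0.60 with an adjusted p of 0.0430, whereas DESeq2 with the block gave an adjusted p of 0.309. Without KO1 the LFC was 0.91 with an adjusted p of 0.0394 in edgeR, without KO3 it was 0.12, and the adjusted p ran from 0.0394 to 0.800 over all alternatives.

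**Figure D2:**
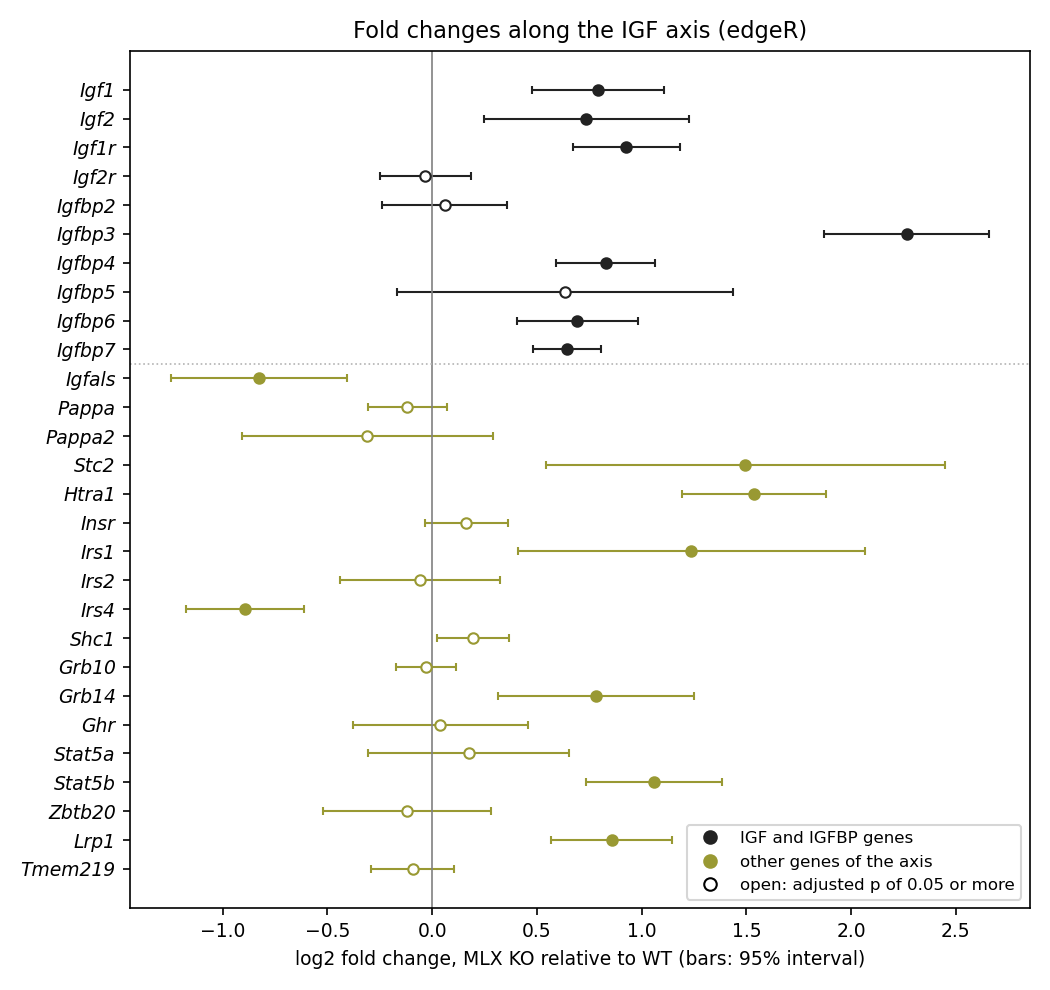
LFC of MLX KO relative to WT testes for the IGF genes (black) and the other tested genes of the axis (olive), with 95% intervals from edgeR. Filled points have an adjusted p under 0.05. The filled black points lie between 0.64 and 2.27, and the intervals of *Igf2r*, *Igfbp2* and *Igfbp5* cross 0.

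Levels per kb of exon put the genes in order. In WT testes, *Igfbp7* was highest at 30.9 CPM per kb, followed by *Igfbp6* at 10.9, *Igfbp2* at 3.56, *Igf2* at 2.85, *Igfbp4* at 2.70 and *Igf2r* at 2.31 CPM per kb. Lower levels were found for *Igf1r* at 0.889, *Igfbp3* at 0.838, *Igf1* at 0.748 and *Igfbp5* at 0.337 CPM per kb. From *Igfbp2* to *Igf2r*, and again from *Igf1r* to *Igf1*, neighbours in this order overlapped between libraries, whereas the others were separate. In MLX KO testes *Igfbp3* moved from the eighth to the fifth place, at 4.07 CPM per kb, and *Igfbp2* from the third to the sixth, at 3.72 CPM per kb. There, *Igfbp4*, *Igf2*, *Igfbp3* and *Igfbp2* overlapped from each to the next, as did *Igf1r* and *Igf1*. These levels rest on the union of all annotated exons, which is longer than the transcripts in use for some of the genes.

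The summed level of the 6 IGFBP transcripts rose with genotype, and its composition shifted toward *Igfbp3*. The sum was 48.2, 47.3 and 52.3 CPM per kb in WT1 to WT3 and 69.6, 82.2 and 85.6 CPM per kb in KO1 to KO3. The groups did not overlap (49.3 ± 2.66 against 79.1 ± 8.40 CPM per kb, SD, n = 3 each), and the sum was 1.61-fold higher in MLX KO testes (exact permutation test, two-sided p = 0.1). An exact permutation test on 3 against 3 testes cannot give less than p = 0.1, and this holds for all the shares that follow. *Igfbp3* made up 2.31%, 1.63% and 1.21% of the sum in WT against 5.19%, 5.33% and 4.92% in MLX KO testes (1.71 ± 0.556% against 5.15 ± 0.208%, SD, n = 3 each, exact permutation p = 0.1). The share of *Igfbp2* moved the other way, with 7.59%, 6.47% and 7.59% in WT against 5.30%, 4.16% and 4.76% in MLX KO testes (7.22 ± 0.645% against 4.74 ± 0.571%, SD, n = 3 each, exact permutation p = 0.1). The LFC of *Igfbp2* itself was 0.06 (adjusted p = 0.742, edgeR), so its share was lower beside a higher sum. The share of *Igfbp4* was 5.47 ± 0.416% in WT and 6.06 ± 0.0759% in MLX KO testes (SD, n = 3 each, exact permutation p = 0.1), without overlap. On plain counts, with no division by exon length, the share of *Igfbp4* differed by 0.974 percentage points and the groups overlapped (exact permutation p = 0.2), and without WT1 the difference fell from 0.591 to 0.359 percentage points. *Igfbp7* held the most in both genotypes, 62.7 ± 0.365% and 61.2 ± 2.47% (SD, n = 3 each, exact permutation p = 0.4), ahead of *Igfbp6* with 22.2 ± 0.603% and 22.2 ± 2.37% (SD, n = 3 each, exact permutation p = 1). *Igfbp5* was the least, 0.676 ± 0.205% and 0.650 ± 0.296% (SD, n = 3 each, exact permutation p = 0.9). Shares were computed within a library and do not depend on the scaling between libraries, but they depend on the exon lengths. On plain counts, the difference in the share of *Igfbp3* was 6.80 in place of 3.43 percentage points (exact permutation p = 0.1 in both), and that of *Igfbp7* was -3.46 in place of -1.53 percentage points (exact permutation p = 0.1 and 0.4).

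**Figure D3:**
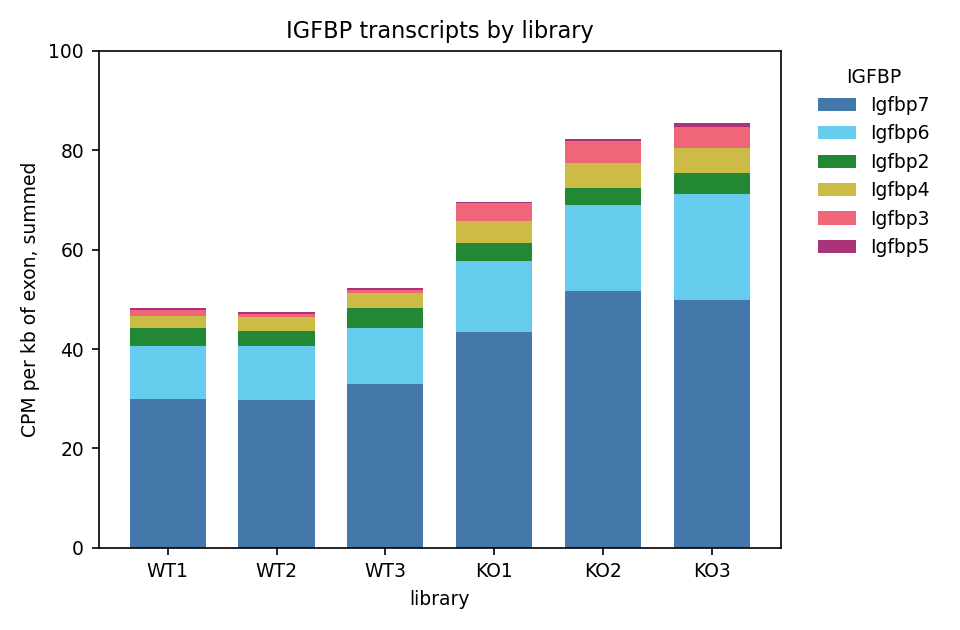
Summed level of *Igfbp2* to *Igfbp7* in each library, stacked by gene, in CPM per kb of exon. The WT libraries sum to 47.3 to 52.3 and the MLX KO libraries to 69.6 to 85.6, and the *Igfbp3* band is wider in each MLX KO library than in any WT library.

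The balance of ligand to binding protein transcripts did not separate the genotypes. The ratio of summed *Igf1* and *Igf2* to the summed IGFBP level, per kb of exon, was 0.0686, 0.0830 and 0.0679 in WT against 0.0556, 0.0837 and 0.0861 in MLX KO testes. KO1 was the lowest of the 6 libraries, and KO2 and KO3 were the highest. On the log2 scale the ratio was -3.78 ± 0.163 in WT and -3.76 ± 0.352 in MLX KO testes (SD, n = 3 each), a difference of 0.02 (exact permutation test, two-sided p = 0.9).

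A list of 24 other genes of the axis excludes the 10 genes above. Of these, 23 had a row in the count table, *H19* had none, and 18 had enough counts for testing. In MLX KO testes 6 of the 18 were higher, 2 were lower and 10 did not pass the threshold (adjusted p under 0.05, edgeR), and the median LFC of the 18 was 0.10. The 8 that passed were close to the share of all genes tested, 45.4%, so their number is no result about the list. Of the genes for IGFBP proteolysis, *Htra1*, a secreted serine protease that cleaves IGFBPs, had 114, 165 and 131 reads in WT against 429, 395 and 466 reads in MLX KO testes (LFC 1.54, adjusted p = 3.47e-05, edgeR, SE 0.16). *Stc2*, whose product inhibits the protease PAPPA, had only 7, 6 and 9 reads in WT against 14, 35 and 18 reads in MLX KO testes (LFC 1.49, adjusted p = 0.0157, edgeR, SE 0.43). *Pappa* itself, the IGFBP4 protease, had an LFC of -0.12 (adjusted p = 0.284, edgeR). *Igfals*, the gene of the acid-labile subunit that binds IGFBP3, fell from 49, 43 and 50 reads in WT to 29, 29 and 28 reads in MLX KO testes (LFC -0.83, adjusted p = 0.00493, edgeR, SE 0.19). *Igfals* and *Igfbp3*, whose products circulate in 1 complex, thus changed in opposite directions in these testes.

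Downstream of the receptors, the substrate gene *Irs1* was higher, with 11, 35 and 35 reads in WT against 93, 45 and 71 reads in MLX KO testes (LFC 1.24, SE 0.38, adjusted p = 0.0197, edgeR). The LFC of *Irs1* was 3.05 in pair 1 and 0.16 and 0.93 in pairs 2 and 3, and without WT1 it was 0.81. *Irs4*, another substrate gene, was lower, with 157, 115 and 129 counts against 77, 74 and 80 counts (LFC -0.90, SE 0.13, adjusted p = 2.90e-04, edgeR). *Grb14*, the gene of an adaptor that inhibits insulin receptor signaling, had an LFC of 0.78 (SE 0.21, adjusted p = 0.0116, edgeR). *Stat5b*, which carries growth hormone signals to *Igf1* in liver, had 63, 56 and 59 reads in WT against 122, 147 and 130 reads in MLX KO testes (LFC 1.06, adjusted p = 2.49e-04, edgeR, SE 0.15). *Lrp1*, a receptor through which IGFBP3 can act without IGFs, had an LFC of 0.86 (SE 0.13, adjusted p = 4.35e-04, edgeR). The remaining tested genes, *Pappa2*, *Irs2*, *Shc1*, *Grb10*, *Ghr*, *Stat5a*, *Zbtb20* and *Tmem219*, did not pass the threshold. Without KO1, 9 of the other axis genes were past it, *Insr* among them and *Irs1* not. With library size alone 10 were past it, again with *Insr*. Which of the remaining genes were gained in these fits is not given here. *Igfbp1*, *Igfbpl1*, *Stc1*, *Insrr* and *Irs3* had too few counts for testing. With the littermate pair as a block in DESeq2, *Igfals* (LFC -0.86, adjusted p = 0.10), *Stc2* (LFC 1.38, adjusted p = 0.127), *Irs1* (LFC 1.29, adjusted p = 0.211) and *Grb14* (LFC 0.72, adjusted p = 0.0938) were no longer past the threshold, which left 4 of the 8. Those p were the highest of the alternatives for these genes, the lowest being 0.00390, 0.00440, 0.00813 and 8.44e-04. Leaving out a library also ended the call of *Stc2* (without WT1, WT2 or KO2, LFC 1.40, 1.44 and 0.99), *Irs1* (without KO1, LFC 1.01) and *Grb14* (without KO2, LFC 0.61).

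Markers of testis cell types moved with genotype beside the IGF genes. All 9 Leydig cell markers were higher in MLX KO testes (median LFC 1.07), and their summed level was 901 to 924 CPM in WT and 1909 to 2527 CPM in MLX KO testes. The same held for all 11 Sertoli cell markers (median LFC 0.65, 861 to 919 CPM against 1319 to 1592 CPM) and for all 8 tested macrophage markers (median LFC 1.21, 71.4 to 75.7 CPM against 132 to 140 CPM), *Adgre1* having no row in the table. Among peritubular myoid cell markers 4 of 6 were higher and 1 lower, with a summed level of 310 to 369 CPM in WT and 309 to 325 CPM in MLX KO testes. Most of that sum was *Actg2*, the marker that was lower, with 238, 282 and 282 CPM in WT against 217, 203 and 194 CPM in MLX KO testes. The other 5, of which *Cnn1* did not pass the threshold, had LFCs of 0.33 to 0.62. Among endothelial cell markers 2 of 7 were higher, with 41.8 to 51.5 CPM in WT and 57.0 to 63.4 CPM in MLX KO testes. Germ cell markers behaved otherwise. Of the spermatid markers 10 of 10 were lower (median LFC -0.47, 18097 to 18932 CPM in WT against 10582 to 12897 CPM in MLX KO testes), and of the spermatocyte markers 7 of 9 were lower (median LFC -0.16, 1743 to 1797 CPM against 1525 to 1600 CPM). Spermatogonium markers were split, with 2 of 8 higher and 1 lower, at 142 to 145 CPM in WT and 157 to 168 CPM in MLX KO testes. The median LFC of the IGF genes, 0.71, lay between those of the Sertoli and Leydig cell lists, while the LFC of *Igfbp3*, 2.27, exceeded that of every marker in the 8 lists, of which *Kdr* was highest at 2.05. The part of these cell types in the levels of the IGF genes was not tested.

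**Figure D4:**
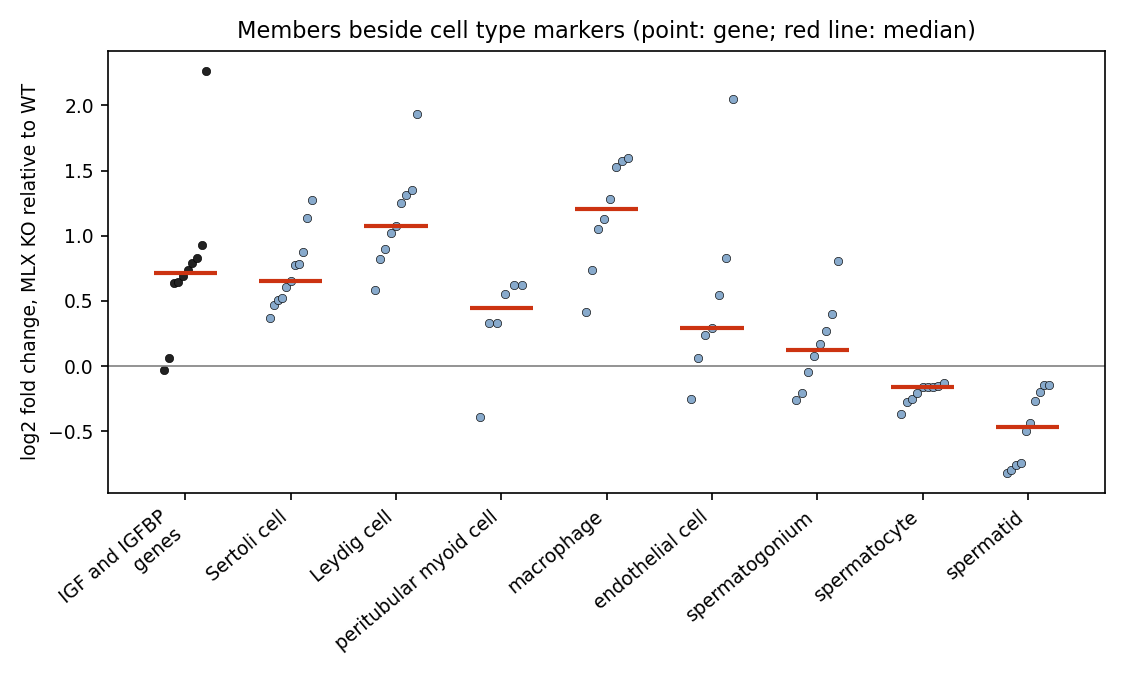
LFC of MLX KO relative to WT testes for the 10 IGF genes and for each list of cell type markers, 1 point per gene with the median as a red line. The IGF genes other than *Igf2r* and *Igfbp2* lie among the Sertoli, Leydig and macrophage markers or, for *Igfbp3*, above them. The highest endothelial cell and spermatogonium markers also lie within or above the range of these genes without *Igfbp3*. The spermatocyte and spermatid markers lie below 0.

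The MLX KO libraries differed among themselves in an order that most IGF genes shared. KO1 was the lowest MLX KO library for 9 of the 10 genes, and KO3 was the highest for 8 of the 10. KO1 also had the lowest summed level of Leydig markers among them, 1909 CPM against 2527 and 2335 CPM, and of Sertoli markers, 1319 CPM against 1592 and 1589 CPM. Its summed spermatid level was the highest of the 3, 12897 CPM against 11343 and 10582 CPM. Whether these levels bear on the order of the IGF genes was not tested. How many of all genes had KO1 lowest or KO3 highest was not counted. Over all genes tested, KO1 stood apart from KO2 and KO3, as given above.

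Across the 6 libraries, the genes outside the group whose log2 CPM followed *Igf1* most closely were *Myh9*, *Ust* and *Lrp1*, with Pearson's r of 0.9997, 0.9996 and 0.9993. For *Igfbp3* they were *Lrrc2*, *Cryz* and *Nfkb2*, with r of 0.9996, 0.9995 and 0.9988. An r over 0.9 was reached by 2289 genes for *Igf1* and by 2260 genes for *Igfbp3*. The libraries form 2 clusters by genotype, so these values describe a shared separation of the genotypes across 3 and 3 libraries.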

How the data were processed

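RNA from whole testes (TRIzol, paired-end reads) of 3 WT and 3 MLX KO males, littermates 7 months old, was analysed. The series also has 16 ChIP-Seq samples, not used here. The authors aligned reads to mm10 with TopHat and deposited raw counts, as whole reads for each gene symbol in each library, without normalization. The submitters' processing notes also name bcl2fastq 1.8.4 and DESeq2. The counting tool, the gene annotation and the use of strand are not given in the sources used here. The same table holds the authors' own comparison of the genotypes (mean signal, log2 fold change, standard error, test score, p-values), and those columns were not used. Of 17933 rows, 2 repeated another row and were used once.

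Counts were tested in edgeR 4.0.16 (R 4.3.3) with its low-count filter at the default minimum of 10, TMM, the two-sided quasi-likelihood test on genotype alone, and Benjamini-Hochberg adjustment over 14640 genes, at a threshold of 0.05. Levels between genes are CPM divided by the summed exon length of GENCODE M21. Promoter windows and positions are on GRCm38, the assembly of mm10. Shares and ratios were compared with exact permutation tests over libraries. Replicates are separate animals. Titles number paired replicates and the study describes littermate pairs. Across genes, the log2 CPM deviations of a library from its genotype mean correlated at 0.145, 0.0363 and 0.121 within pairs 1 to 3, and across pairs the highest correlation was 0.0330. The study's methods give no model, while a figure legend speaks of a pair-wise analysis without saying how pairs entered it. The fit without the pair was kept as the main one and the block as an alternative.

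The members, the list of other axis genes and the marker lists were chosen with earlier results of these data known. The text names all 10 members, each axis gene past the threshold, those not past it without a direction, and for *Igf1* and *Igfbp3* the 3 most correlated genes. *Insr* and *Pappa* are given values because results turn on them, and *Kdr*, *Actg2* and *Cnn1* were named, and TATAAA was searched on either strand, after values were seen. Alternatives were DESeq2 1.42.0, DESeq2's size factors, library size alone, no filter, a minimum of 1 CPM in 3 libraries, a block for the littermate pair (edgeR, DESeq2), plain counts in place of counts per kb, and each library left out in turn. On simulated counts with 200 changed genes, edgeR recovered 194 (97%) and called 10 unchanged genes among 14681 tested. In the testes, 6649 of 14640 genes were past the threshold, with a median absolute LFC of 0.40. Recovery at LFCs of that size, with the spread seen between these libraries, or in counts with that many changed genes was not tested.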

Additional observations from a re-analysis of the deposited data

How the results depend on the processing

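*Igf1*, *Igf1r*, *Igfbp3*, *Igfbp4*, *Igfbp6* and *Igfbp7* stayed higher and past the threshold in all 13 alternatives. The number of the 10 genes past it was 6 with DESeq2 with or without the pair, 8 with the edgeR replicate block, and 6 to 8 with a library left out. Of all genes, 5766 of 15148 were past it with DESeq2, 4579 of 15150 with its block and 6743 of 14640 with the edgeR block. With a library left out, 5130 of 14784 (without KO2) to 7395 of 14787 (without KO1) were past it. *Igf2* had an LFC of 0.70 in DESeq2 (adjusted p = 0.0904) and 0.64 with the DESeq2 replicate block (adjusted p = 0.0854), and 0.55 to 1.01 with a library left out. That of *Igfbp5* was 0.60 with the edgeR replicate block (adjusted p = 0.0430) and 0.12 to 0.95 with a library left out. The replicate block in DESeq2 left 4 of the other axis genes past the threshold, and the edgeR block ended no call of a named gene. *Igf2r* and *Igfbp2*, near 0, changed sign. *Igf2r* was at 0.11 with library size alone and at -0.12 to 0.0393 with a library left out, and *Igfbp2* at -0.0336 to 0.14. *Pappa* was at 0.0212 with library size alone. The difference between genotypes in the share of *Igfbp6*, in percentage points, was -0.734 on plain counts and -1.34 to 0.859 with a library left out, and that of *Igfbp5* was -0.196 to 0.0847. The log2 ratio of ligands to IGFBPs differed by -0.0342 on plain counts and by -0.0949 to 0.22 with a library left out. Where an alternative changed a call or a sign, the cause was not tested. Of the genes past the threshold, 54.7% were higher in MLX KO testes, against 80.8% with library size alone (5343 higher and 1268 lower), 48.4% with DESeq2 and 47.9% with its block. An exact permutation test on 3 against 3 testes cannot give less than p = 0.1 for a share or ratio.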
